A study of Mus musculus with 8 samples.

Results

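The genes described here are 34 genes of the endoplasmic reticulum, the compartment in which secreted and membrane proteins are folded. They were listed by name, but the choice was made with earlier results of these data known. Of them 17 serve folding, 3 encode stress sensors or their effector, 9 serve degradation and 5 serve the import of new chains. All 34 were matched by symbol among the 55416 gene identifiers of the table, and all 34 passed the filter on low counts. RNA was sequenced from MB21, a mouse medulloblastoma line labelled as a ptch mutant, in 2 groups: 4 libraries of cells kept for 5 days with 10 uM DS-1-38, a compound derived from benzarone, and 4 libraries of cells kept as long with its vehicle, DMSO. Both groups carry the ptch mutation and grew without attachment in DMEM/F12 with B27. They are called DS38 and DMSO below. All values come from 1 line, and since no label states that replicates were separate cultures, the tests below measure only how these samples spread, which may be technical variation.

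Newly made chains enter the endoplasmic reticulum through the Sec61 channel and are folded there by chaperones led by BiP, the product of Hspa5. Chains that fail to fold are recognised by lectins, pulled back through the membrane, tagged by ubiquitin ligases such as Hrd1 and destroyed by the proteasome, a route called ER-associated degradation. When unfolded protein accumulates, the sensors Ire1 (Ern1), Atf6 and Perk (Eif2ak3) start the unfolded protein response. The Ire1 and Atf6 arms raise chaperone and degradation genes, and the Perk arm slows translation and raises the transcription factor Atf4, which kinases that answer other stresses, such as amino acid shortage, raise as well.

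Many chaperone promoters carry the ER stress response element (ERSE), in which CCAAT binds the factor NF-Y and CCACG binds Atf6 or Xbp1. The matches are shown because they are a known regulatory feature of part of these genes. The letters searched were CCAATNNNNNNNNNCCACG for ERSE, ATTGG, 1 base of any kind and CCACG for the related ERSE-II, TGACGTGG for the core of the unfolded protein response element and TGATGNAA for the composite site of Atf4 with C/EBP factors, on both strands and without mismatch. The windows were RefSeq promoters of build GRCm38.p6, from 250 bases before to 50 bases after a start, which held 28 of the 34 members. ERSE letters were found in 39 of 32851 promoters, 0.119%, and in the promoters of 9 of the 28 members, 32.1%. They were found in 0 genes of the further lists described below. The element was first described in promoters of this very kind of gene. ERSE and ERSE-II both end in CCACG, and no member held both. The 9 members' matches are given 5′ to 3′ along the strand that matched, with the fixed letters of the motif in capitals.
Hspa5: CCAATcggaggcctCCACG
Hsp90b1: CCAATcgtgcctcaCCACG
Dnajc3: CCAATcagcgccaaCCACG
Creld2: CCAATtgaggctcgCCACG
Calr: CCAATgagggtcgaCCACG
Canx: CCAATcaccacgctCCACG
Pdia6: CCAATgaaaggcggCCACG
Syvn1: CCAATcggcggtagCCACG
Derl3: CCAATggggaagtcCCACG
The match of Hspa5 lay at chr2:34772025-34772043, beginning 65 bases before its start, and that of Syvn1 at chr19:6046532-6046550, beginning 44 bases before. Those of Calr, Creld2 and Derl3 and the one shown for Hsp90b1 were on the strand opposite to the gene, and Hsp90b1 held another on its own strand. The promoters of Hyou1, Manf, Atf6, Derl1, Sec61a1 and Ssr2 were not analysed here.

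The 130 bases before the start of Hspa5 and of Herpud1 are shown because these genes, one a chaperone and one a degradation gene, changed in opposite directions. Capitals mark the fixed letters of each motif found.
Hspa5: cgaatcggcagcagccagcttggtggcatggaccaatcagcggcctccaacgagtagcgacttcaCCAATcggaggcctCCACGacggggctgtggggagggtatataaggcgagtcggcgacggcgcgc
Herpud1: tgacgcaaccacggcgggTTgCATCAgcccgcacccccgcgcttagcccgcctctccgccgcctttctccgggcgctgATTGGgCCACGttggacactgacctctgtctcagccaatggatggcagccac
The windows are chr2:34771960-34772089 and chr8:94386299-94386428, both on the plus strand. Hspa5 had the ERSE letters in full. Herpud1 had no exact ERSE match, though its last printed bases, ccaatggatggcagccac, fit the ERSE letters up to the final G. It had an ERSE-II at chr8:94386377-94386387 and, on the opposite strand, the Atf4 composite letters at chr8:94386317-94386324. ERSE-II letters occurred in 12 of the 32851 promoters, 0.0365%, and in 2 members, Herpud1 and Dnajb11. The composite letters occurred in 3.97% of all promoters and in 1 of the 28 members, 3.57%, and the core of the unfolded protein response element in 0.676% of promoters and 0 of the 28 members. A match describes letters and is not a shown binding site.

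Library totals ran from 17142397 to 28476019 counts. The libraries numbered 1 lay at 1 end of the second principal component (14.7% of the variance), at 21.7 in DS38 and 16 in DMSO, against -16 to 0.152 in the other 6. DS38 replicates 3 and 4 lay at the other end, at -16 and -14.7. By chi-square per degree of freedom between 2 libraries, DS38 replicates 1 and 2 (4.29) and 3 and 4 (3.98) were close. The remaining DS38 pairs had 10.5 to 18.5, and the DMSO pairs 4.25 to 7.59. The cause of this split was not tested. Without both libraries numbered 1, 8 members rose and 6 fell, with the call of Dnajb9 lost (adjusted p = 0.088). Testing used edgeR's quasi-likelihood method, and a gene was called when its p, adjusted by Benjamini-Hochberg over 15133 genes, was under 0.05. Of those genes 39.5% were called, 18.8% rising and 20.7% falling, so that 47.5% of the changed genes rose. With libraries scaled by their totals alone, 64.3% of the changed genes rose. The groups did not overlap in 36.1% of genes. Levels are in CPM, counts per 1000000 counts of a library, with library totals adjusted by TMM factors except for the markers of cell types. The 9 markers of the granule neuron lineage, from which Shh-type medulloblastoma arises, all passed the filter, with a sum of 1837 to 1921 CPM in DS38 and 1543 to 1603 CPM in DMSO. Atoh1 (mean 441 CPM in DS38 and 278 CPM in DMSO), Barhl1 and Cntn2 were higher in DS38, while Gli1 (92.7 CPM in DS38 and 134 CPM in DMSO) and Zic1 were lower. Sums were 114 to 116 in DS38 and 117 to 121 in DMSO for 5 astrocyte markers, nearly all of it Slc1a3, and 54.5 to 59.4 in DS38 and 75.1 to 80.7 in DMSO for 5 oligodendrocyte lineage markers, mostly Pdgfra. The remaining lists had 1.55 to 2.00 in DS38 and 0.848 to 1.5 in DMSO (5 microglia and macrophage markers, Cx3cr1 at 0), 4.1 to 5.09 in DS38 and 2.44 to 3.16 in DMSO (5 of fibroblasts), 1.48 to 1.81 in DS38 and 0.782 to 1.75 in DMSO (4 of endothelium, Cldn5 at 0), and 15.7 to 18.9 in DS38 and 19.8 to 22.0 in DMSO (4 of plasma cells, nearly all Sdc1). The part of other cells in the values below was not tested, and in bulk RNA fewer cells of a type and less RNA per cell cannot be told apart.

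The comparison asks whether 5 days with DS-1-38 changed the transcripts of the folding and degradation machinery. For most members the difference was small. Of 34 members, 8 rose, 7 fell and 19 did not pass, so 44.1% were called, beside 39.5% of all genes and 50.3% of those averaging 20 CPM or more. The members' share is near that of all genes. In every DS38 library 7 members were higher and 7 lower than in any DMSO library, beside 17.3% and 18.8% of all genes. The members' median log2 fold change was 0.02, against -0.01 over all genes tested, and 30 of 34 lay within 0.25 of 0 on the log2 scale. Beyond 0.25 lay 11.8% of members, 36.8% of all genes and 22.3% of those averaging 20 CPM or more. Herpud1, with a log2 fold change of -0.91, stood far from the others, and its change was larger in size than that of 96.8% of all genes.

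**Figure D1:**
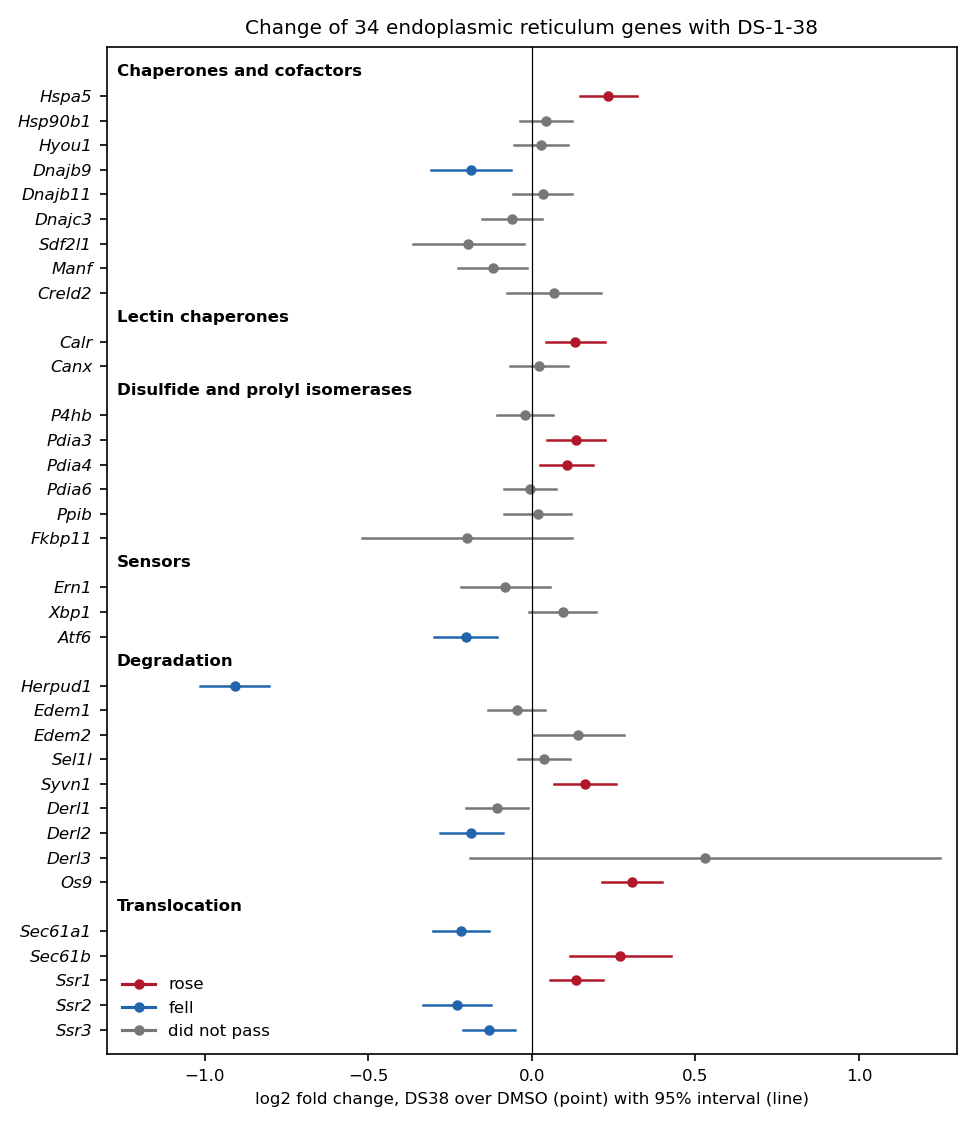
Log2 fold change (x axis, DS38 over DMSO) of the 34 members (rows, by role) with 95% intervals from edgeR. Points in red rose, points in blue fell and points in grey did not pass; Herpud1 lies at -0.91, and the interval of the scarce Derl3 is the widest, -0.19 to 1.25.

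Most folding genes did not pass the test. Of 17, 4 rose (Hspa5, Calr, Pdia3 and Pdia4), 1 fell (Dnajb9) and 12 did not pass. That is 29.4% called, beside 39.5% of all genes and 50.3% of those averaging 20 CPM or more. Their median log2 fold change was 0.02, with a range of -0.20 to 0.23, beside -0.01 over all genes. The 12 that did not pass were not shown to be equal between the groups, though for 10 of them the 95% interval lay within 0.25 of 0 on the log2 scale. The summed level of the 17 was 4231 ± 78.9 CPM in DS38 and 4036 ± 89.8 CPM in DMSO (SD, n = 4 each). Leaving out 1 library moved the number of rises to 2 without DMSO replicate 3, DMSO replicate 4 or DS38 replicate 2, and the number of falls to 0 without DMSO replicate 1 or DMSO replicate 2, to 2 without DMSO replicate 3 or DMSO replicate 4, and to 3 without DS38 replicate 4.

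Among the chaperones, Hspa5 (ENSMUSG00000026864), which encodes the Hsp70-type chaperone BiP, had 531, 550.4, 533 and 559.6 CPM in the DS38 libraries, against 489, 468, 458 and 434 CPM in the DMSO libraries. Every DS38 library stood above every DMSO library. The means were 544 ± 13.7 CPM in DS38 and 462 ± 22.5 CPM in DMSO, a rise of 1.18-fold (log2 change 0.23 ± 0.042 SE, edgeR adjusted p = 0.000243). It was called in all 18 alternative settings, with log2 fold changes of 0.20 to 0.29. Hsp90b1, the Hsp90 of this compartment, had 581, 605, 596 and 581 CPM in the DS38 libraries, against 553, 590.3, 581 and 569.6 CPM in the DMSO libraries. Its groups overlapped, and its log2 difference of 0.04 did not pass (interval -0.04 to 0.12, edgeR adjusted p = 0.393). Exons of the pseudogene 1810014B01Rik on the other strand cover 10.3% of Hsp90b1. Hyou1, which exchanges nucleotide on BiP, had a mean of 231 ± 7.20 CPM in DS38 and 226 ± 7.27 CPM in DMSO and did not pass (log2 difference 0.03, interval -0.05 to 0.11).

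The J-domain partners that hand clients to BiP differed among themselves. Dnajb9, which also keeps Ire1 inactive through BiP, had 24.9, 25, 25.6 and 24.7 CPM in the DS38 libraries, against 29.9, 30.2, 26.3 and 27.3 CPM in the DMSO libraries. The DS38 libraries lay close together and all below the DMSO libraries (log2 change -0.19 ± 0.059 SE, edgeR adjusted p = 0.0174). That call was lost without DMSO replicate 1 (adjusted p = 0.0541), without DMSO replicate 2 (0.0675) and with libraries scaled by totals alone (0.1). Dnajb11 averaged 91.7 ± 3.16 CPM in DS38 and 89.6 ± 4.01 CPM in DMSO, and Dnajc3 averaged 80.1 ± 2.98 CPM in DS38 and 83.6 ± 3.37 CPM in DMSO. Neither passed, with log2 differences of 0.03 and -0.06. Sdf2l1, a partner of Dnajb11, averaged 30.1 ± 2.95 CPM in DS38 and 34.3 ± 3.48 CPM in DMSO and did not pass (log2 difference -0.19, edgeR adjusted p = 0.0641). The stress-induced secreted factor gene Manf averaged 91.6 ± 5.45 CPM in DS38 and 99.4 ± 6.12 CPM in DMSO (log2 difference -0.12, edgeR adjusted p = 0.0677), and Creld2, another stress-induced gene, averaged 28.8 ± 2.55 CPM in DS38 and 27.4 ± 2.04 CPM in DMSO (log2 difference 0.07, edgeR adjusted p = 0.455). Sdf2l1 passed without DMSO replicate 3 (adjusted p = 0.0188) or DS38 replicate 4 (0.0229), and Manf without DMSO replicate 4 (0.0258) or DS38 replicate 4 (0.0216). With no filter on low counts both passed (adjusted p = 0.00562 for Sdf2l1 and 0.0307 for Manf), and with a correction for gene length Manf passed (0.0432).

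The lectin chaperones hold glycoproteins during folding. Calr, the soluble one (calreticulin), had 508, 548, 545 and 572 CPM in the DS38 libraries, against 498, 518, 489 and 477 CPM in the DMSO libraries. The lowest DS38 library, replicate 1, lay below the highest DMSO library, replicate 2, so the groups overlapped. It rose nonetheless in the test (log2 change 0.13 ± 0.043 SE, edgeR adjusted p = 0.0205), though not without DMSO replicate 4 (adjusted p = 0.0677), DS38 replicate 2 (0.0566) or DS38 replicate 4 (0.0552). Canx, the membrane-bound one (calnexin), had 626, 631, 667 and 627 CPM in the DS38 libraries, against 601, 657, 646 and 609 CPM in the DMSO libraries. It did not pass (log2 difference 0.02, interval -0.07 to 0.11).

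The thiol oxidoreductases form and rearrange disulfide bonds. Pdia3 (ERp57), which works with the lectin chaperones, had 435, 464, 454 and 484 CPM in the DS38 libraries, against 437, 425, 403 and 408 CPM in the DMSO libraries. Only the lowest DS38 library, replicate 1, lay within the DMSO range (log2 change 0.13 ± 0.042 SE, edgeR adjusted p = 0.0168). Without DMSO replicate 3 its adjusted p was 0.054. Pdia4 (ERp72) had 197, 195, 204 and 198 CPM in the DS38 libraries, against 194, 178, 182 and 182 CPM in the DMSO libraries. The groups were apart by a narrow margin (log2 change 0.11 ± 0.039 SE, edgeR adjusted p = 0.0375), and the call was lost in 7 of 18 settings, among them the replicate block (adjusted p = 0.0763) and the fits without DMSO replicate 2 (0.113), DMSO replicate 3 (0.0798), DMSO replicate 4 (0.0817), DS38 replicate 2 (0.0578) or DS38 replicate 3 (0.0833). P4hb, the archetype of the family, averaged 389 ± 9.18 CPM in DS38 and 395 ± 17.8 CPM in DMSO (log2 difference -0.02, interval -0.11 to 0.06). Pdia6 averaged 166 ± 3.96 CPM in DS38 and 167 ± 4.32 CPM in DMSO (log2 difference -0.01, interval -0.09 to 0.07). The prolyl isomerase genes Ppib and Fkbp11 averaged 122 ± 8.19 CPM in DS38 and 121 ± 5.13 CPM in DMSO, and 2.35 ± 0.194 CPM in DS38 and 2.68 ± 0.165 CPM in DMSO, and neither passed (edgeR adjusted p = 0.806 and 0.324). Of the exon length of Ppib, 25% overlaps the antisense gene Snx22 in GENCODE vM21, which had 33 counts over the 8 libraries.

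The 3 sensor genes were 1 fall and 2 that did not pass. That is 33.3% called, beside 39.5% of all genes and 50.3% of those averaging 20 CPM or more. Atf6, which encodes a membrane-bound factor released by cleavage, had 113, 112, 115 and 105 CPM in the DS38 libraries, against 119, 126, 135 and 133 CPM in the DMSO libraries. No DS38 library reached the lowest DMSO library, replicate 1 (log2 change -0.20 ± 0.046 SE, edgeR adjusted p = 0.00181), and the call held in all 18 settings. Ern1, the gene of the Ire1 kinase and ribonuclease, averaged 24.2 ± 1.31 CPM in DS38 and 25.7 ± 1.91 CPM in DMSO (log2 difference -0.08, interval -0.22 to 0.05, edgeR adjusted p = 0.34). Xbp1, whose transcript Ire1 splices into its active form, had 38.1, 37.4, 38.0 and 39.0 CPM in the DS38 libraries, against 34.9, 36.7, 33.9 and 37.3 CPM in the DMSO libraries. The groups did not overlap, by a narrow margin, but the difference did not pass (log2 0.09, interval -0.01 to 0.20, edgeR adjusted p = 0.136). It passed when libraries were scaled by totals alone (adjusted p = 0.019). Counts per gene do not separate spliced from unspliced Xbp1 or cleaved from full-length Atf6.

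Degradation genes held the largest change of the set and moved in both directions. Of 9, 2 rose (Os9 and Syvn1), 2 fell (Herpud1 and Derl2) and 5 did not pass. That is 44.4% called, beside 39.5% of all genes and 50.3% of those averaging 20 CPM or more. Their median log2 fold change was 0.04, beside 0.02 for the folding genes and -0.01 over all genes, and the difference between the lists was not tested. Herpud1 (ENSMUSG00000031770), a membrane protein of the Hrd1 complex that gathers its parts and is a known target of both the unfolded protein response and Atf4, had 39.0, 37.2, 40.2 and 40.9 CPM in the DS38 libraries, against 78.2, 76.1, 70.0 and 70.1 CPM in the DMSO libraries. Every DS38 library was well under every DMSO library. The means were 39.3 ± 1.60 CPM in DS38 and 73.6 ± 4.22 CPM in DMSO (SD, n = 4 each), 1.88-fold lower in DS38 (log2 change -0.91 ± 0.050 SE, edgeR adjusted p = 1.08e-10). The log2 fold change stayed between -0.94 and -0.85 in all 18 settings, with no loss of the call.

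Os9, a lectin that delivers misfolded glycoproteins to the Hrd1 complex, had 59.2, 56.3, 56.4 and 59.8 CPM in the DS38 libraries, against 45.5, 48.6, 47.0 and 46.2 CPM in the DMSO libraries. All DS38 libraries were above all DMSO libraries, with means of 57.9 ± 1.83 CPM in DS38 and 46.8 ± 1.34 CPM in DMSO (log2 change 0.31 ± 0.044 SE, edgeR adjusted p = 2.68e-05). Syvn1, the gene of the ubiquitin ligase Hrd1 itself, had 46.2, 43.9, 45.4 and 46.7 CPM in the DS38 libraries, against 41.3, 40.9, 39.2 and 41.2 CPM in the DMSO libraries. Again the groups did not overlap (log2 change 0.16 ± 0.045 SE, edgeR adjusted p = 0.00789). Exons of Mrpl49 on the other strand cover 1.87% of Syvn1. Sel1l, the adaptor that binds Hrd1, averaged 175 ± 4.0 CPM in DS38 and 171 ± 4.28 CPM in DMSO and did not pass (log2 difference 0.04, interval -0.04 to 0.12).

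The derlins are membrane proteins through which chains leave. Derl2 had 45.3, 48.4, 49.9 and 47.6 CPM in the DS38 libraries, against 55.6, 55.9, 52.0 and 53.7 CPM in the DMSO libraries. All DS38 libraries were below all DMSO libraries (log2 change -0.19 ± 0.046 SE, edgeR adjusted p = 0.00367). Exons of Mis12 on the other strand cover 2.87% of Derl2. Derl1 had 77.3, 73.8, 76.8 and 72.0 CPM in the DS38 libraries, against 81.9, 81.1, 84.8 and 74.9 CPM in the DMSO libraries. It did not pass (log2 difference -0.11, interval -0.20 to -0.01, edgeR adjusted p = 0.0707), though it did without DMSO replicate 4 (adjusted p = 0.0185). Derl3 was scarce, with 24, 15, 13 and 8 counts in the DS38 libraries, against 15, 11, 8 and 6 counts in the DMSO libraries. It did not pass, with a wide interval at that depth (log2 difference 0.53, interval -0.19 to 1.25, edgeR adjusted p = 0.234). Edem1 and Edem2, which serve mannose trimming of misfolded glycoproteins, averaged 87.5 ± 2.94 CPM in DS38 and 90.4 ± 2.79 CPM in DMSO, and 21.7 ± 0.779 CPM in DS38 and 19.7 ± 1.56 CPM in DMSO. Neither passed (edgeR adjusted p = 0.401 and 0.0993).

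**Figure D2:**
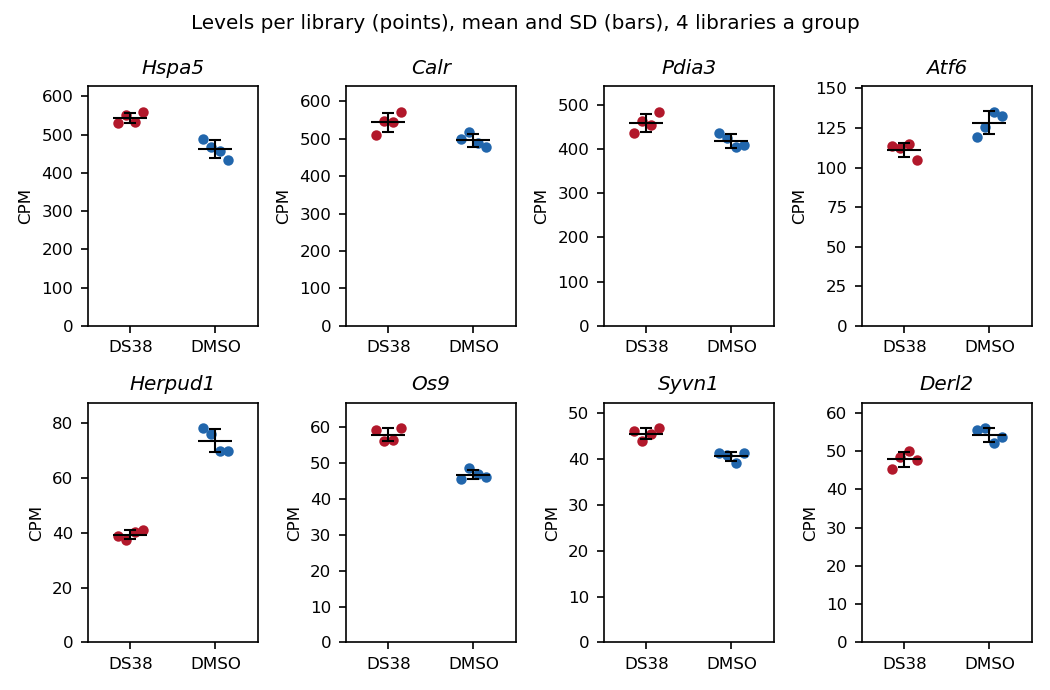
CPM (y axis, from 0) of 8 members in each library, with DS38 left and DMSO right; points are libraries and bars the mean and SD of 4. Hspa5, Os9 and Syvn1 lie higher in every DS38 library, Herpud1, Derl2 and Atf6 lie lower in every one, and the groups of Calr and Pdia3 overlap.

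All 5 genes of the import machinery were called, 2 rising and 3 falling. Of all genes 39.5% were called, and of those averaging 20 CPM or more 50.3%. Subunits of 1 complex moved apart. Sec61a1, the pore-forming subunit, had 262, 253, 255 and 262 CPM in the DS38 libraries, against 302, 305, 313 and 279 CPM in the DMSO libraries. The DS38 libraries all lay lower (log2 change -0.22 ± 0.041 SE, edgeR adjusted p = 0.000407). Sec61b, a small subunit of the same channel, had 42.2, 42.9, 40.0 and 44.8 CPM in the DS38 libraries, against 39.3, 38.0, 33.0 and 30.1 CPM in the DMSO libraries. Here the DS38 libraries all lay higher, and the DMSO libraries spread more widely (log2 change 0.27 ± 0.073 SE, edgeR adjusted p = 0.00808). Sec61g, the gene of another small subunit and not a member, did not pass (log2 difference 0.06, interval -0.12 to 0.25, edgeR adjusted p = 0.579).

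Ssr1, Ssr2 and Ssr3 encode the alpha, beta and gamma subunits of TRAP, a complex beside the channel that helps chains enter. Ssr1 had 549, 523, 543 and 530.3 CPM in the DS38 libraries, against 489.7, 470.2, 505 and 487 CPM in the DMSO libraries. It rose (log2 change 0.14 ± 0.038 SE, edgeR adjusted p = 0.00911), but not after a correction for gene length (log2 fold change 0.08, adjusted p = 0.103). Its gene model is 10431 bases long, the longest of the 34. Ssr2 had 129.7, 138, 134 and 149 CPM in the DS38 libraries, against 172, 167, 153 and 153 CPM in the DMSO libraries, with every DS38 library lower (log2 change -0.23 ± 0.050 SE, edgeR adjusted p = 0.0013). A processed pseudogene, Gm10704, shares 12.8% of the exon length of Ssr2 and had 366 counts, against 26238 for Ssr2 over the 8 libraries. Ssr3 had 542, 537, 564 and 531 CPM in the DS38 libraries, against 588, 612, 591 and 588 CPM in the DMSO libraries. It fell (log2 change -0.13 ± 0.038 SE, edgeR adjusted p = 0.011), except that with libraries scaled by totals alone the adjusted p was 0.153. Ssr4, the gene of another TRAP subunit and not a member, fell too, with every DS38 library lower (log2 change -0.32 ± 0.087 SE, edgeR adjusted p = 0.0148). Divided within each library, levels per length gave a Sec61b to Sec61a1 ratio of 0.872 ± 0.035 in DS38 and 0.62 ± 0.065 in DMSO, a Ssr1 to Ssr2 ratio of 0.698 ± 0.054 in DS38 and 0.543 ± 0.043 in DMSO and a Ssr1 to Ssr3 ratio of 0.395 ± 0.0094 in DS38 and 0.328 ± 0.015 in DMSO. The pairs were chosen after their values were seen, so no test is given, and for these 3 ratios the groups did not overlap.

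**Figure D3:**
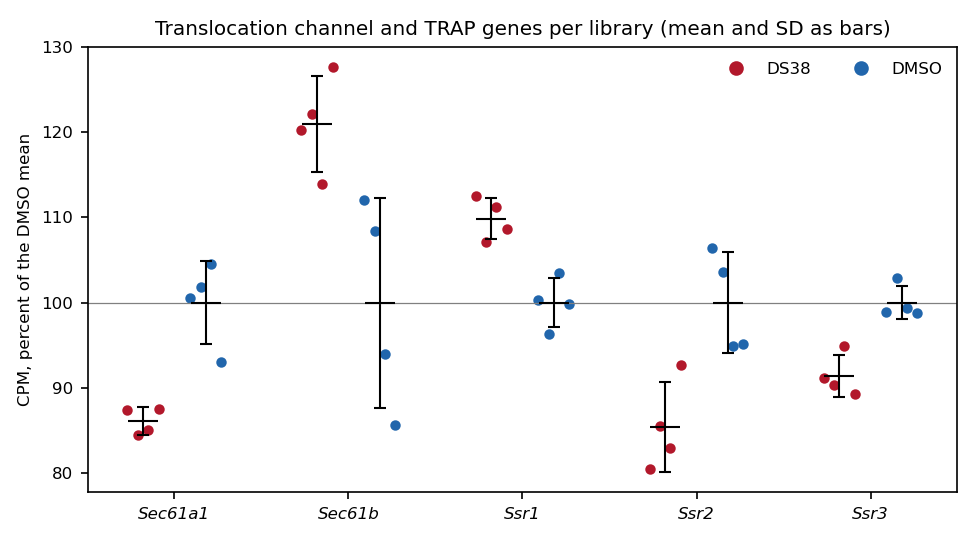
CPM of the 5 import genes in each library, as a percent of the DMSO mean (y axis, not from 0), DS38 left of DMSO for each gene; points are libraries, and bars the mean and SD of 4. Sec61b and Ssr1 lie higher in DS38, and Sec61a1, Ssr2 and Ssr3 lie lower.

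Levels between genes are compared per length, as CPM per kb of gene model. Calr was highest, at 189 ± 9.10 in DS38 and 172 ± 5.99 in DMSO, and Ssr3, Hsp90b1, P4hb, Canx, Pdia3 and Hspa5 followed with over 100 CPM per kb in DMSO. The spreads of Ssr3, Hsp90b1 and P4hb, at 130.3 ± 3.47 in DS38 and 143 ± 2.82 in DMSO, 147 ± 2.87 in DS38 and 142 ± 3.97 in DMSO, and 136 ± 3.21 in DS38 and 138 ± 6.24 in DMSO, overlapped in DMSO, so their order there is not resolved. Canx, at 136 ± 4.17 in DS38 and 134 ± 5.82 in DMSO, and Pdia3, at 146 ± 6.46 in DS38 and 133 ± 4.85 in DMSO, overlapped each other and P4hb in DMSO, and their order is not resolved either. Herpud1 stood at 16.9 ± 0.686 in DS38 and 31.5 ± 1.81 in DMSO, which put it 23rd of the 34 in DS38 and 14th in DMSO. In DMSO it stood between Ppib and Hyou1. Its DMSO spread overlapped those of Hyou1, Sdf2l1, Manf and Sec61b, so its order among these is not resolved. Degradation enzymes and sensors below it included Syvn1 at 9.38 ± 0.25 in DS38 and 8.37 ± 0.203 in DMSO and Ern1 at 2.96 ± 0.16 in DS38 and 3.14 ± 0.234 in DMSO. Fkbp11, at 0.868 ± 0.0719 in DS38 and 0.991 ± 0.0608 in DMSO, and Derl3, at 0.337 ± 0.132 in DS38 and 0.228 ± 0.0612 in DMSO, were lowest.

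**Figure D4:**
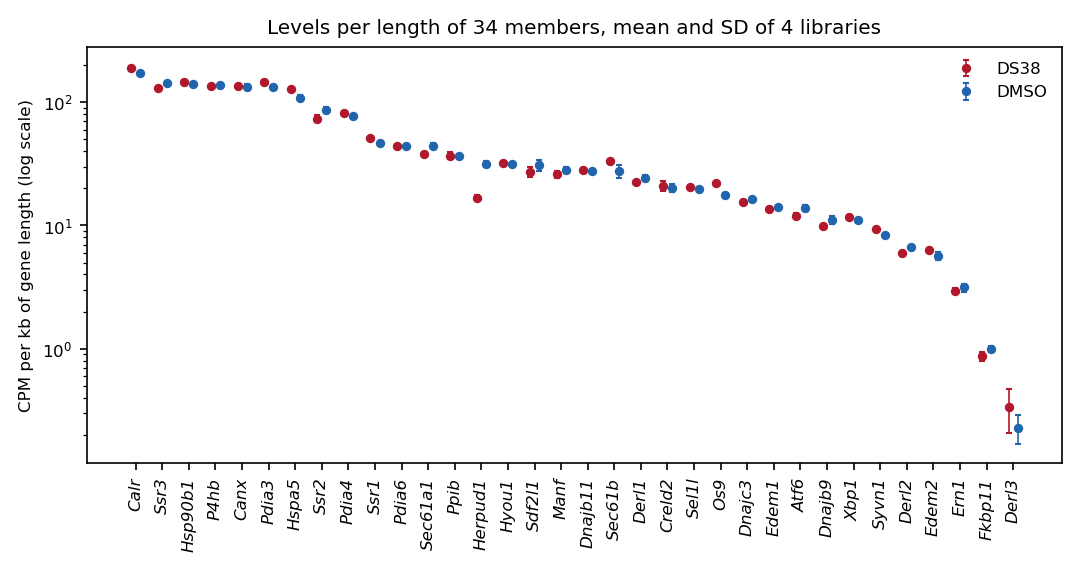
CPM per kb of gene length (y axis, log scale) of the 34 members, ordered by the DMSO mean, with DS38 left of DMSO for each gene; points are means and bars the SD of 4 libraries. Calr is highest and Derl3 lowest, and the gap between the groups is widest for Herpud1 among the well expressed members.

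The 9 members with ERSE letters in the promoter had 3 rises (Hspa5, Calr and Syvn1), 0 falls and 6 that did not pass, with a median log2 fold change of 0.07. The 19 with a promoter entry and no ERSE letters had 5 rises, 4 falls and 10 that did not pass, with a median of 0.02. Over all genes 18.8% rose and 20.7% fell, 39.5% together. The called share of the ERSE members, both directions together, is near that 39.5%. By direction, the 3 rises and 0 falls of the 9 are not near the shares of all genes, but they rest on few genes. The difference between these sets was not tested. Of the 2 members with ERSE-II letters, Herpud1 fell and Dnajb11 did not pass (log2 difference 0.03). Herpud1 was also the only member with Atf4 composite letters, and a link of these letters to its change was not tested.

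Other genes of the same machinery were examined in 4 further lists. Of 30 other folding genes, 4 rose, 9 fell and 17 did not pass (median log2 fold change -0.08), which is 43.3% called, beside 39.5% of all genes. The oxidase gene Ero1l, which feeds disulfides to the protein disulfide isomerases and is also induced by hypoxia, had 75.5, 74.3, 78.9 and 57.9 CPM in the DS38 libraries, against 120.0, 125, 119 and 130.4 CPM in the DMSO libraries (log2 change -0.78 ± 0.082 SE, edgeR adjusted p = 3.18e-05). The prolyl isomerase gene Fkbp2 (log2 change -0.50 ± 0.055 SE, edgeR adjusted p = 1.33e-06) and Serp1, whose product binds the Sec61 channel under stress (log2 change -0.38 ± 0.043 SE, edgeR adjusted p = 1.44e-06), fell too. The disulfide isomerase gene Pdia5 rose, with 34.8, 33.1, 32.9 and 35.1 CPM in the DS38 libraries, against 28.4, 24.1, 23.5 and 24.5 CPM in the DMSO libraries (log2 change 0.43 ± 0.062 SE, edgeR adjusted p = 2.65e-05).

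Of 20 other sensor and transducer genes, 3 rose, 10 fell and 7 did not pass (median log2 fold change -0.18), which is 65.0% called, beside 39.5% of all genes and 50.3% of those averaging 20 CPM or more. Eif2ak3, the Perk gene, averaged 40.4 ± 1.67 CPM in DS38 and 40.4 ± 2.58 CPM in DMSO and did not pass (log2 difference 0.00, interval -0.11 to 0.12, edgeR adjusted p = 0.961). Atf4, Ddit3 and Ppp1r15a, genes of its downstream branch, fell. Atf4 had 179, 182, 183 and 188 CPM in the DS38 libraries, against 314, 348, 330.4 and 308 CPM in the DMSO libraries, and Ddit3, the Chop gene, had 9.92, 12.4, 9.62 and 9.94 CPM in the DS38 libraries, against 23.0, 29.5, 23.1 and 24.3 CPM in the DMSO libraries. Their groups were far apart (log2 change -0.83 ± 0.043 SE, edgeR adjusted p = 4.53e-11 for Atf4; log2 change -1.24 ± 0.097 SE, edgeR adjusted p = 5.84e-08 for Ddit3). Exons of Mars on the other strand cover 3.97% of Ddit3. Ppp1r15a, which encodes the stress-induced phosphatase subunit Gadd34, fell as well (log2 change -0.38 ± 0.074 SE, edgeR adjusted p = 0.000515). Atf6b, the close relative of Atf6, averaged 63.1 ± 5.44 CPM in DS38 and 63.9 ± 3.0 CPM in DMSO and did not pass (log2 difference -0.02, interval -0.14 to 0.10). Nfya and Nfyb, which encode subunits of the factor that binds CCAAT, averaged 95.4 ± 2.37 CPM in DS38 and 144 ± 2.84 CPM in DMSO, and 72.8 ± 2.77 CPM in DS38 and 111 ± 6.98 CPM in DMSO, and both fell (log2 change -0.59 ± 0.038 SE, edgeR adjusted p = 9.43e-10 for Nfya; log2 change -0.61 ± 0.048 SE, edgeR adjusted p = 1.58e-08 for Nfyb). Nfyc, the gene of another subunit of that factor, rose, with every DS38 library higher (log2 change 0.24 ± 0.058 SE, edgeR adjusted p = 0.00304).

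Of 29 other degradation genes, 3 rose, 7 fell and 19 did not pass (median log2 fold change -0.03), which is 34.5% called, near the 39.5% of all genes. Vcp, the ATPase that pulls chains out of the membrane, averaged 544 ± 14.4 CPM in DS38 and 455 ± 21.1 CPM in DMSO and rose (log2 change 0.26 ± 0.042 SE, edgeR adjusted p = 9.01e-05). The Vcp cofactor gene Faf1 (log2 change -0.22 ± 0.038 SE, edgeR adjusted p = 0.000155) and Herpud2, the relative of Herpud1 (log2 change -0.21 ± 0.044 SE, edgeR adjusted p = 0.0011), fell. Without DS38 replicate 3, 4 genes of the list fell, and with libraries scaled by totals alone 7 rose and 4 fell. Within each library, the ratio of Herpud1 to Herpud2 per length was 2.35 ± 0.13 in DS38 and 3.8 ± 0.28 in DMSO, and the groups did not overlap. Edem3 averaged 230.5 ± 12.8 CPM in DS38 and 221 ± 12.9 CPM in DMSO and did not pass (edgeR adjusted p = 0.317).

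Of 27 other import and glycosylation genes, 0 rose, 6 fell and 21 did not pass (median log2 fold change -0.07), which is 22.2% called, beside 39.5% of all genes, of which 20.7% fell. The fallers with the smallest p were the signal peptidase subunit gene Spcs1 (log2 change -0.37 ± 0.052 SE, edgeR adjusted p = 2.38e-05), the oligosaccharyltransferase gene Stt3a (log2 change -0.27 ± 0.042 SE, edgeR adjusted p = 5.47e-05), and Srp14 (log2 change -0.25 ± 0.049 SE, edgeR adjusted p = 0.000597) and Srprb (log2 change -0.25 ± 0.056 SE, edgeR adjusted p = 0.00182) of the signal recognition particle and its receptor. A single gene of the list rose when replicate 1 or 4 of either group was left out, and 3 rose with libraries scaled by totals alone. Exons of Glt8d1 on the other strand cover 16.3% of Spcs1, and Gm20425 covers 20.7% of Srprb. Sec63, a J-domain partner of the channel, averaged 167 ± 6.41 CPM in DS38 and 176 ± 7.21 CPM in DMSO and did not pass (edgeR adjusted p = 0.205).

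**Figure D5:**
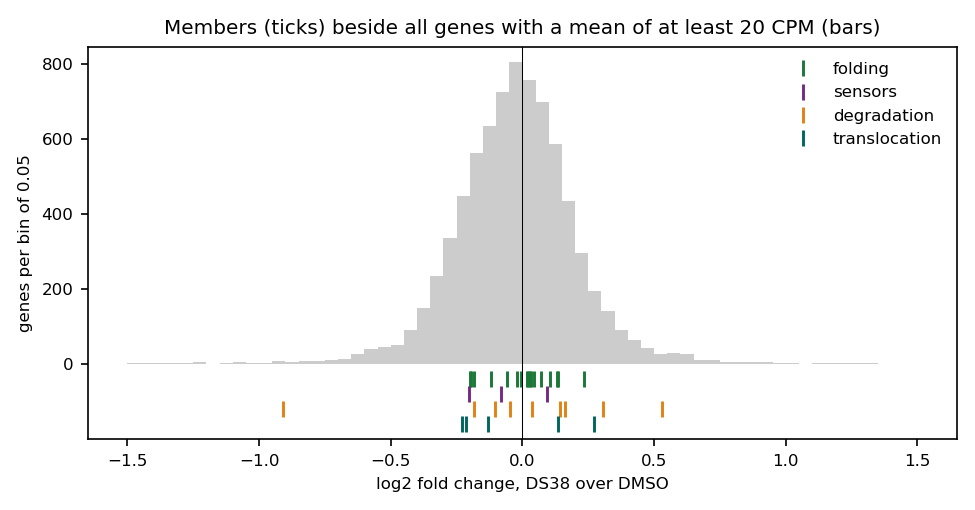
Log2 fold changes (x axis, DS38 over DMSO) of the 7669 genes that averaged 20 CPM or more, as genes per bin of 0.05 (y axis, bars), with the members as ticks below by role; 14 genes beyond 1.5 in size are not drawn. All but 4 members lie within 0.25 of 0, and the degradation gene at -0.91 is Herpud1.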

How the data were processed

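Messenger RNA libraries of 8 MB21 samples were compared, 4 DS38 and 4 DMSO. The authors deposited raw read counts for each gene in 1 table, with no normalization, beside the gene's length in bases. Per the submitters' processing notes, builds GRCm39 and GRCh38.p13, STAR 2.7.9a, Subread 2.0.3 with featureCounts, and edgeR in R 4.1.0 were used. The sources used here do not give the annotation release, the strand setting or the handling of multiply matching reads, so genes that overlap others or have pseudogene copies are uncertain. Totals were 17142397 to 28476019 counts per library.

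Symbols came from GENCODE vM21 (52083 of 55416 identifiers). Of 107 entries on the 4 further lists, 106 were matched, 5 by a synonym. The members and lists were chosen with earlier results of these data known. Named genes were all 34 members, up to 4 called genes of smallest p in each further list, and 7 fixed ones; 1 of them is not reported here.

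edgeR 4.0.16 in R 4.3.3 ran its robust quasi-likelihood test with TMM factors (0.9753 to 1.032) and the default filterByExpr (10 counts). Adjustment was Benjamini-Hochberg over 15133 genes. CPM are TMM-adjusted. Standard errors are the log2 fold change over the square root of F, and intervals are 95%. The common coefficient of variation was 5.53%. The scripts were tested on simulated counts. The alternatives were DESeq2 size factors, library totals, DESeq2 1.42.0, limma-voom (limma 3.58.1), no filter, a filter of 50 counts in 4 libraries, a replicate block, a fit that was not robust, a gene length correction, and fits without each library or without both numbered 1.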

Additional observations from a re-analysis of the deposited data

Results flagged for a closer look

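Of 110 groups of 4 libraries examined for the named genes, 3 held a library far from the other 3 by Dixon's criterion, which chance alone meets in about 1 group in 20. Canx had 667 CPM in DS38 replicate 3, against 626 to 631 CPM in the other DS38 libraries. Ssr3 had 612 CPM in DMSO replicate 2, against 588 to 591 CPM in the other DMSO libraries, and its call held without that library. Ddit3 had 12.4 CPM in DS38 replicate 2, against 9.62 to 9.94 CPM in the other DS38 libraries.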

How the results depend on the processing

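Of the 15 members called, 9 were called in each of 18 alternative settings, 6 lost the call in at least 1, and 6 of the 19 others gained one; no named gene changed direction with a call. Of the 17 folding members, 2 to 4 rose and 0 to 3 fell with 1 library left out; 0 fell by library totals or without both libraries numbered 1, 3 with no filter and 2 with the length correction. By library totals, which moved the median of all genes by 0.0607 on the log2 scale, Hsp90b1, Xbp1 and Edem2 rose (1 sensor), Dnajb9 and Ssr3 were lost, and medians were 0.0819 (folding), -0.0205 (sensors), 0.0976 (degradation) and -0.0696 (import). The degradation median was -0.0184 without both libraries numbered 1. With the length correction 1 import member rose. Of other degradation genes, 7 rose and 4 fell by library totals, and 4 to 8 fell with 1 library left out. Of other import and glycosylation genes, 0 to 1 rose with 1 library left out, 1 with DESeq2 size factors or the 50-count filter, 2 without both libraries numbered 1 and 3 by totals. The cause was not tested. The libraries numbered 1 deviated together (r = 0.331), but those numbered 2, 3 and 4 did not (-0.0699, 0.067 and -0.0816), so the numbers were not taken as pairs; with the replicate block 7 members rose and 7 fell, since Pdia4 lost its call. Counts limit Derl3, which was not tested with the 50-count filter or without both libraries numbered 1. Protein sequences were not used here.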

Other observations

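The same letters were also found in promoters outside the 34 genes. ERSE letters lay in the promoters of 9 other genes tested, of which 2 rose and 1 fell, and ERSE-II letters in those of 7, of which 2 rose and 3 fell. The core of the unfolded protein response element lay in 100 other promoters of tested genes, of which 19.0% rose and 21.0% fell, beside 18.8% and 20.7% of all genes. The Atf4 composite letters lay in those of 263, of which 46 rose and 91 fell, 17.5% and 34.6%. None of these shares was tested.

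Ratios of levels per length within a library set Herpud1 beside other members, for pairs chosen after their values were seen and with no test. Herpud1 over Hspa5 was 0.131 ± 0.006 in DS38 and 0.289 ± 0.0079 in DMSO (SD, n = 4 each). Os9 over Herpud1 was 1.31 ± 0.047 in DS38 and 0.566 ± 0.035 in DMSO, so the lectin stood above Herpud1 in every DS38 library and below it in every DMSO library. Hspa5 over Hsp90b1 was 0.877 ± 0.028 in DS38 and 0.769 ± 0.05 in DMSO, without overlap. Ssr2 over Ssr3 was 0.568 ± 0.046 in DS38 and 0.607 ± 0.034 in DMSO and Derl2 over Derl1 was 0.264 ± 0.014 in DS38 and 0.279 ± 0.018 in DMSO, and in both the groups overlapped. The summed level of the 9 degradation members was 551 ± 6.54 CPM in DS38 and 577 ± 3.88 CPM in DMSO, and that of the 5 import members was 1518 ± 17.8 CPM in DS38 and 1579 ± 27.7 CPM in DMSO. Herpud1 alone averaged 39.3 CPM in DS38 and 73.6 CPM in DMSO, a larger drop than that of the degradation sum. The median log2 fold change of the 9 was 0.04, with 2 rises and 2 falls.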
